A study of Mus musculus with 48 samples.

Results

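The regions described here are distal H3K4me1 sites that 3 populations of wild-type mouse skeletal progenitors had in common. A site is a peak of the WT pBCSP H3K4me1 list that overlapped by 1 base or more a peak of the WT SSC and of the WT BCSP H3K4me1 lists, and that overlapped no peak of any of the 6 H3K4me3 lists. Of 120792 peaks in the WT pBCSP list, 23987 met this rule (19.9%). They were 34.1% of the 70395 peaks of that list that lay clear of H3K4me3. The members were thus chosen by measured values, the positions of peaks in the WT H3K4me1 lists and in all H3K4me3 lists, and the number, width and enrichment of the sites in WT are descriptions of the choice. Overlap with KO H3K4me1 lists, overlap with H3K27ac lists and RNA were not used to choose them.

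The limbs of C57BL/6 pups were the source of the cells, at postnatal day 3. KO mice were Ptipf/f;Col2a1-cre, with Cre under control of the gene of the main cartilage collagen, and WT mice were Ptipf/f without Cre, so that all mice carried the floxed alleles. Per the labels 3 sorted populations were taken: SSC are skeletal stem cells, BCSP are progenitors of bone, cartilage and stroma, and pBCSP are the stage named as coming before BCSP. Each of the 6 groups had 1 H3K4me1, 1 H3K4me3, 2 H3K27ac and 2 RNA libraries. Deletion is limited to cells with a history of Col2a1 expression, which limits the KO group as a model. The labels do not say that replicates came from separate animals, and p-values then measure only the spread between these libraries, which may be technical.

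H3K4me1 marks enhancers, the distal elements that raise transcription of genes from a distance, and H3K4me3 marks active promoters. KMT2C and KMT2D (MLL3 and MLL4) place most enhancer H3K4me1, and PTIP, encoded by Paxip1, is an adaptor subunit of the complexes that hold these enzymes. H3K27ac is added to enhancers and promoters when they are active, so that a distal site with H3K4me1 alone is often called poised or primed. In skeletal progenitors, SOX9, SOX5 and SOX6 act through distal elements of cartilage matrix genes, and RUNX2 acts at bone genes.

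Paxip1 RNA was at 0.35 and 0.00 CPM (counts scaled to a common library total) in SSC KO, 0.57 and 0.09 in pBCSP KO and 3.48 and 0.79 in BCSP KO, against 7.25 to 14.6 CPM in the 6 WT libraries. The genotypes did not overlap, in the direction of the labels. RNA libraries held 15495915 to 22670899 counts, and reads fell on 13987 genes in replicate 2 of SSC KO, against 20965 to 23831 genes in each of the other 11 libraries. Summed chondrocyte marker RNA was 85003 to 136022 CPM in KO libraries and 42539 to 121551 CPM in WT libraries. Summed osteoblast marker RNA was 3588 to 22908 CPM in KO and 15196 to 47335 CPM in WT, and Schwann cell marker RNA 149 to 421 CPM in KO and 69.1 to 1251 CPM in WT. Leukocyte marker RNA, which had values for 3 of its 6 genes, was 8.17 to 33.0 CPM in KO and 2.57 to 11.7 CPM in WT. Endothelial marker RNA was 0.0 to 16.3 CPM in KO and 4.09 to 34.0 CPM in WT, and erythroid marker RNA 1.95 to 27.4 CPM in KO and 19.3 to 201 CPM in WT. The part of these markers in the results below was not tested. In such bulk samples fewer cells of a type and less RNA per cell cannot be told apart.

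The sites covered 38.3 Mb of GRCm38 in all. Their median width was 1323 bases (quartiles 883 and 2000, range 246 to 20981), and the median of the authors' fold enrichment over background was 3.59 (range 2.21 to 6.56). The other 46408 distal peaks of the WT pBCSP list had a median width of 611 bases and a median fold of 3.08. The 35648 peaks shared by the 3 WT lists that did overlap H3K4me3 had a median width of 1821 bases and a median fold of 4.003. The sites were wider than the other distal peaks and narrower than the shared peaks with H3K4me3.

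The rule has an edge at 1 base of overlap. For 310 sites the smaller of the overlaps with WT SSC and WT BCSP was 100 bases or less, and these had a median width of 524.5 bases and a median fold of 3.06. The 172 other distal peaks that missed the rule by 100 bases or less had a median width of 490 bases and the same median fold. Over all sites the median of the smaller overlap was 633 bases, and 12966 sites were covered over at least 0.5 of their width in both lists. Of all sites, 34 came within 100 bases of an H3K4me3 peak, and the median distance to one was 10.3 kb.

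Most sites lay far from a gene start. The midpoint was a median of 49.5 kb from the nearest annotated start of a protein-coding gene, and 447 sites (1.86%) lay within 2 kb, 11.4% between 2 and 10 kb, 37.0% between 10 and 50 kb, 19.9% between 50 and 100 kb and 29.8% beyond 100 kb. A gene span held 13571 sites (56.6%). The other distal peaks were at a median of 48.8 kb, with 53.0% in a gene span. On the X chromosome there were 147 sites, 0.613% of the sites, against 2.202% of the other distal peaks. The share was also low in the shared peaks with H3K4me3 (0.701%) and in the WT SSC H3K4me1 list that the rule uses (0.757%). KO overlap of the X-linked sites was 95.9% in SSC, 94.6% in pBCSP and 92.5% in BCSP, against 95.2%, 93.6% and 91.1% of the autosomal sites.

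A minority of sites held an annotated start, and the DNA there can be read from the RefSeq promoter table. Of 32851 listed start windows (250 bases before to 50 after a start), 392 lay wholly in a site, of which 283 (72.2%) belonged to long non-coding RNAs and 109 to protein-coding genes. Long non-coding RNAs were 32.9% of the 3973 windows inside shared peaks with H3K4me3 and 35.3% of all windows. Windows in sites held a median of 4 CG dinucleotides, against 9 in shared peaks with H3K4me3 and 7 over all windows. A ratio of observed to expected CG of 0.6 or more, a usual mark of CpG islands, was reached by 2 windows in sites (0.510%), by 31.4% of the windows in shared peaks with H3K4me3 and by 35.8% of all windows. The 311 windows inside other distal peaks also had a median of 4 CG, with 1.93% at that ratio, so that the low CG content is not particular to the sites.

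Arap1, which encodes a GTPase-activating protein, has a listed start in a site and others in shared peaks with H3K4me3. Ngef, which encodes a guanine nucleotide exchange factor, is a protein-coding gene whose only listed start lies in a site. Both were chosen after their values were seen, to show the sequence on either side of the rule. The stretches are the 250 bases before each start on the gene's own strand, from RefSeq on GRCm38.p6, with CG dinucleotides in capitals. The Ngef stretch is chr1:87573871-87574120 on the minus strand, the Arap1 stretch in a site chr7:101385276-101385525 on the plus strand and the Arap1 stretch in an H3K4me3 peak chr7:101347819-101348068 on the plus strand.
Ngef start in a site: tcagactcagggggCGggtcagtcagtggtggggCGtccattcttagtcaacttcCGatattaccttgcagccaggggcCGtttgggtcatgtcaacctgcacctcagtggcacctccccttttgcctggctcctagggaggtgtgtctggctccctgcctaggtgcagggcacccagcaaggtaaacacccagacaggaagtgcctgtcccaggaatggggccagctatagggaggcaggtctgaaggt
Arap1 start in a site: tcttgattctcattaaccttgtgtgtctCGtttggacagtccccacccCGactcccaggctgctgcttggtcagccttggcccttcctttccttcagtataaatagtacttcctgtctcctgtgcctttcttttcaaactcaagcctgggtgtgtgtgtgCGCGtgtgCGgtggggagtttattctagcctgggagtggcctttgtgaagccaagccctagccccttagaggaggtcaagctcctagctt
Arap1 start in an H3K4me3 peak: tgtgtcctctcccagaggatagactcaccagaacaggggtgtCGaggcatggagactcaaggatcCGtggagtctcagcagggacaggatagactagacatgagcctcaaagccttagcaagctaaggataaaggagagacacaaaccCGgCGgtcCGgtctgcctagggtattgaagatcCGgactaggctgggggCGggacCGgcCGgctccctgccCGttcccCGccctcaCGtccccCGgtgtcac

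Read 5′ to 3′, the Ngef stretch holds 4 CG and the Arap1 stretch in a site 5, whereas the Arap1 stretch in the H3K4me3 peak holds 13. The ratio of observed to expected CG over the whole window was 0.158 at the Ngef start, 0.299 at the Arap1 start in a site and 0.745 at the Arap1 start in the H3K4me3 peak. Another Arap1 start in a shared peak with H3K4me3, not printed here (chr7:101394138-101394387), holds 4 CG before it and has a ratio of 0.138. Both values are below those of the Arap1 start in a site, so that CG content did not separate the Arap1 starts. The Ngef site spans chr1:87573097-87575651 (fold 4.35) and the Arap1 site chr7:101384899-101386140 (fold 4.20), and both overlapped a peak in all 3 KO H3K4me1 lists. Ngef RNA was at 62.2 and 21.1 CPM in SSC KO, 74.1 and 43.6 in pBCSP KO and 38.3 and 36.9 in BCSP KO, against 98.1 and 149 CPM in SSC WT, 171 and 177 in pBCSP WT and 59.8 and 76.7 in BCSP WT. It was lower in KO within each population, by a log2 difference of -1.33 ± 0.28 that did not pass the test over all genes (edgeR quasi-likelihood test, adjusted p = 0.0576). Arap1 RNA was at 7.87 to 72.4 CPM in KO and 39.3 to 84.9 CPM in WT, and the genotypes overlapped.

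The letters of 5 motifs were searched on both strands of the 300 base windows. AP-1 (TGANTCA) was found in 11.99% of the windows in sites and 7.81% of all windows, RUNX (TGTGGT) in 23.0% and 16.8%, SOX (ACAATG) in 12.5% and 12.6%, E-box (CANNTG) in 80.6% and 72.3%, and TATAAA in 15.1% and 13.6%. In the windows of other distal peaks AP-1 was found in 16.1% and RUNX in 23.2%, at least as often as in the sites. These are descriptions of letters and not of bound factors. Of the 100 protein-coding genes with a start in a site, 73 were tested in RNA, with a median log2 difference of -0.35 between KO and WT, against -0.42 for genes with a start in other distal peaks and -0.10 for genes of all start windows. The 27 tested genes whose listed starts all lay in sites had a median level of 1.21 CPM, and 5 of them reached 10 CPM.

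Nearly all sites overlapped H3K4me1 peaks in KO cells. A KO peak overlapped 22832 sites in SSC (95.2%, 95% exact binomial interval 94.9% to 95.5%), 22451 in pBCSP (93.6%, 93.3% to 93.9%) and 21864 in BCSP (91.1%, 90.8% to 91.5%). The intervals cover counting error only, since each group had 1 H3K4me1 library, and the differences between populations have no replicate check. KO peaks covered 76.2% of the bases of the sites in SSC, 81.7% in pBCSP and 75.5% in BCSP. Over all 3 KO lists, 20364 sites (84.9%) had a peak in each, 2585 in 2, 885 in 1 and 153 in none. A site missing from 1 list most often lacked its peak in BCSP KO (1221 sites), then in SSC KO (700) and pBCSP KO (664).

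**Figure D1:**
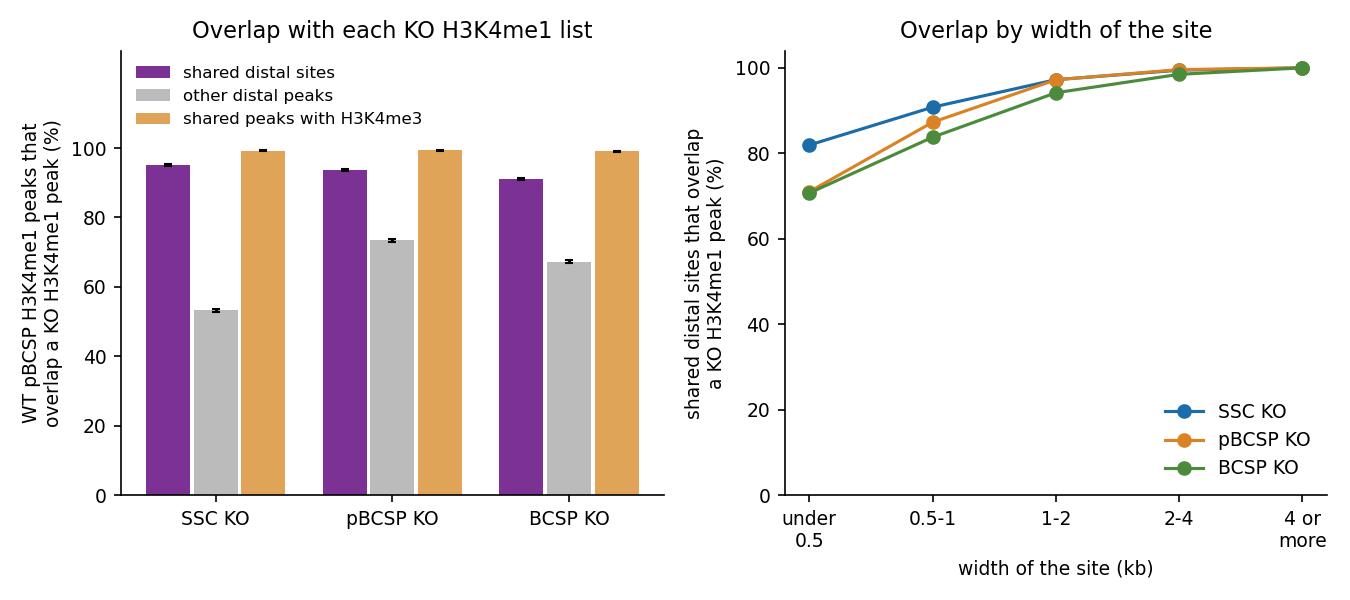
Left, share of WT pBCSP H3K4me1 peaks (percent) that overlapped a peak of each KO H3K4me1 list, for the shared distal sites, the other distal peaks and the shared peaks with H3K4me3, with 95% exact binomial intervals as bars. Right, the share of shared distal sites by width (kb) for each KO list: it climbs with width, to 100% at 4 kb or more.

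The other distal peaks overlapped KO peaks less often, at 53.2% in SSC, 73.4% in pBCSP and 67.3% in BCSP, and the shared peaks with H3K4me3 more often, at 99.2%, 99.3% and 99.0%. The sites exceeded the other distal peaks in 3 of 3 KO lists, by 28.7 ± 11.7 percentage points (mean ± SD, n = 3). Other distal peaks are those missing from the WT SSC or WT BCSP list, while the sites recur in the 3 WT lists. More overlap of the sites with further H3K4me1 lists thus follows in part from the rule, which the test that follows cannot take into account. With 3 lists the exact two-sided permutation test, which swaps the classes within a list, cannot go below p = 0.25, the value it gave. Width moved with this share. Among sites under 500 bases (1612) the overlap was 81.9% in SSC KO, 71.0% in pBCSP KO and 70.7% in BCSP KO, and among the 853 sites of 4 kb or more it was 100% in each. For widths of 1 to 2 kb the shares were 97.2%, 97.2% and 94.2% of 10422 sites, against 76.5%, 92.6% and 85.7% of 8796 other distal peaks, a narrower gap.

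List length differed as well. The shortest KO list, that of SSC, had the highest share of sites, and the longest, that of BCSP, the lowest. For the other distal peaks the share was lowest in SSC. The KO H3K4me1 lists held 115704 peaks in SSC, 137117 in pBCSP and 148530 in BCSP, against 75277, 120792 and 113313 in WT, and covered 165, 210 and 217 Mb, against 85.5, 172 and 141 Mb. When every list was held to the 75277 peaks with the highest deposited -log10 q, 14226 sites met the rule and 85.6% overlapped a KO peak in SSC, 81.7% in pBCSP and 74.2% in BCSP. In the other direction, sites built by the same rule from the KO lists numbered 42014, of which 51.3% overlapped a WT peak in SSC, 87.2% in pBCSP and 82.4% in BCSP. The SSC figure goes with the shortest list, that of WT SSC.

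Of the 153 sites with no KO peak, 110 were assigned to 109 genes and 43 had no gene within 100 kb. Those with the highest WT pBCSP fold lay in Dnmt3b, a de novo DNA methyltransferase (chr2:153670988-153671859, 872 bases, fold 4.64), in Sh3rf3, a RING finger protein (chr10:58907179-58907532, 354 bases, fold 4.39), and 3.73 kb upstream of Nub1, a negative regulator of NEDD8 (chr5:24681737-24682442, 706 bases, fold 3.83). The WT SSC and WT BCSP folds were lower at each of the 3, at 3.06 and 3.01 for Dnmt3b, 3.43 and 3.96 for Sh3rf3 and 2.72 and 2.69 for Nub1. Of the 109 genes 97 were tested in RNA, with 3 called higher (3.09%) and 1 lower (1.03%) in KO by edgeR, on average over the populations, where 0.966% of all genes were called higher and 0.206% lower. These are too few genes to set apart from the background. At the other end, the site with the highest fold (chr12:16008547-16010691, fold 6.56, no gene within 100 kb) was covered over its whole width in all 3 KO lists, with KO folds of 4.72 in SSC, 3.57 in pBCSP and 3.46 in BCSP. Its WT folds were lower outside pBCSP, the list it was chosen on, at 4.18 in SSC and 4.03 in BCSP. The widest site, 20981 bases inside Rxra, the retinoid X receptor alpha gene (chr2:27709185-27730165), was covered by KO peaks over 92.0% of its length in SSC, 87.4% in pBCSP and 76.8% in BCSP.

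H3K27ac peaks met few of the sites. Over the 12 lists 1296 sites (5.40%) overlapped at least 1 H3K27ac peak, 843 (3.51%) in any KO list and 659 (2.75%) in any WT list, and 206 of these in both genotypes. Per library the share in replicates 1 and 2 was 0.117% and 0.125% in SSC KO against 0.163% and 0.00834% in SSC WT. It was 0.730% and 0.138% in pBCSP KO against 1.63% and 0.529% in pBCSP WT, and 1.86% and 1.27% in BCSP KO against 0.717% and 0.104% in BCSP WT. In BCSP both KO libraries lay above both WT libraries, and in pBCSP each KO library lay below the WT library of its replicate number. KO libraries averaged 0.707% ± 0.730 and WT libraries 0.526% ± 0.607 (SD, n = 6 each). The difference of 0.181 percentage points was smaller than the spread between libraries (exact two-sided permutation test within replicate numbers, p = 0.655, 400 regroupings), and it turned to -0.0594 without BCSP KO replicate 1 and to -0.00869 without BCSP KO replicate 2.

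**Figure D2:**
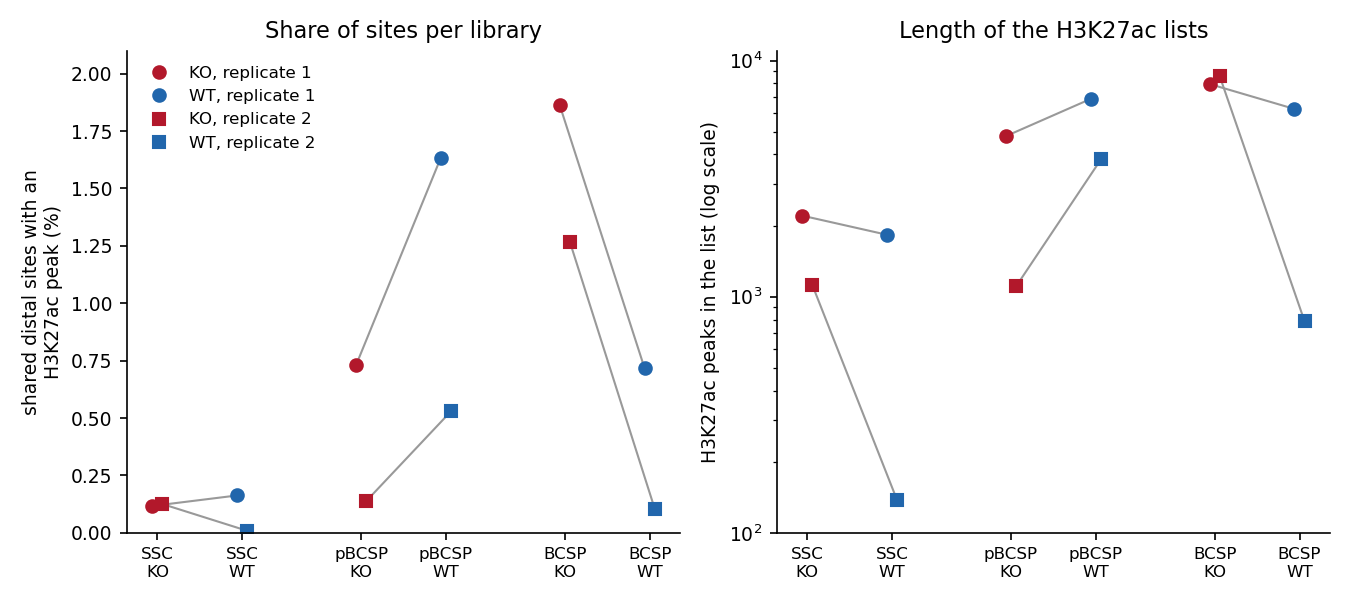
Left, share of the shared distal sites (percent) that overlapped an H3K27ac peak in each of the 12 libraries, KO left of WT in each population, with circles for replicate 1 (broad peak lists), squares for replicate 2 (narrow peak lists) and lines joining libraries of the same number. Right, number of peaks in the same lists on a log scale: the lists with a higher share of sites were mostly the longer ones, from 137 peaks in SSC WT replicate 2 to 8572 in BCSP KO replicate 2.

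The lengths of the H3K27ac lists moved with these shares. Replicates 1 and 2 held 2203 and 1119 peaks in SSC KO against 1828 and 137 in SSC WT, 4783 and 1105 in pBCSP KO against 6879 and 3811 in pBCSP WT, and 7951 and 8572 in BCSP KO against 6236 and 785 in BCSP WT. Per 1000 H3K27ac peaks of the list, 56.2 and 35.5 sites were met in BCSP KO against 27.6 and 31.8 in BCSP WT, and 36.6 and 29.9 in pBCSP KO against 57.0 and 33.3 in pBCSP WT. The directions within BCSP and pBCSP were the same on this scale. In SSC they were mixed, with 12.7 and 26.8 in KO against 21.3 and 14.6 in WT. The part of list length in the results was not tested beyond this scaling.

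Sites with H3K27ac were wider and more enriched in H3K4me1 than those without. Their median width was 2277 bases against 1286, their median fold 3.93 against 3.57, and their median distance to a start 42.1 kb against 49.9 kb. KO H3K4me1 peaks overlapped 99.3% of them in SSC, 99.4% in pBCSP and 98.5% in BCSP, against 94.9%, 93.3% and 90.7% of the sites without H3K27ac. Of all sites of 2 to 4 kb, with or without H3K27ac, KO peaks overlapped 99.5% in SSC, 99.6% in pBCSP and 98.5% in BCSP. The part of width in this contrast was not tested. In each of the 12 libraries H3K27ac met a larger share of the sites than of the other distal peaks, at a mean of 0.616% against 0.147%. The difference was 0.470 ± 0.479 percentage points (mean ± SD, n = 12; two-sided permutation test swapping the classes within a library, p = 0.000488, the smallest it can give). In SSC WT replicate 2 it rests on 2 sites against 0 other distal peaks. The rule makes the classes differ in width and fold, and the same peaks are scored in every library. The test cannot take this into account, and no conclusion is drawn from its p. At widths of 1 to 2 kb the means were 0.450% for sites and 0.355% for other distal peaks, the sites were higher in 6 of 12 libraries, and the difference of 0.0949 ± 0.197 points did not pass (p = 0.125 in the same permutation test), so that the gap was not shown apart from width.

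Recurrent H3K27ac was rare: 296 sites met a peak in 2 or more lists and 8 in 6 or more. The 2 sites with the most lists lay near cartilage genes and are named after their values were seen. One is 86.4 kb upstream of Hapln1, which encodes the link protein that ties aggrecan to hyaluronan (chr13:89453213-89455314, 2102 bases, H3K4me1 fold 4.16), and had H3K27ac in 4 of 6 KO and 5 of 6 WT lists. The H3K27ac folds there were 5.27 in SSC KO replicate 1, 4.35 and 8.84 in pBCSP KO and 7.17 in BCSP KO replicate 2, against 4.37 and 6.53 in SSC WT, 5.58 and 7.35 in pBCSP WT and 3.95 in BCSP WT replicate 1. The other is 60.4 kb upstream of Col11a1, a fibrillar collagen gene of cartilage (chr3:113968855-113971449, 2595 bases, fold 4.63), with 3 KO and 4 WT lists. Both overlapped H3K4me1 peaks in all 3 KO lists. The other 6 sites had H3K27ac in 6 lists each, the one with the highest fold being of 5059 bases near Zmiz1, a transcriptional coregulator (chr14:25369198-25374256), with 4 KO and 2 WT lists.

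H3K27ac in both libraries of one genotype and neither of the other was found at 35 BCSP sites for KO, and at 15 pBCSP sites for WT. In the reverse directions there were 1 BCSP site for WT and 2 pBCSP sites for KO. The RNA of the nearest genes was split at the BCSP sites, with 11 of 22 tested genes above 0 in BCSP KO against WT and a median log2 difference of 0.07. At the pBCSP sites 9 of 10 tested genes were below 0 in pBCSP KO against WT, with a median of -0.54, where 51.4% of all genes were below 0. Of all tested protein-coding genes with a site, 59.0% were below 0 in pBCSP. In both sets edgeR called 0 genes, and the site inside Cgnl1 (chr9:71700114-71704798) belonged to both.

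To relate the sites to RNA, each site was assigned to the protein-coding gene with the nearest start within 100 kb, which placed 16848 sites at 6509 genes (29.7% of 21900). A single site was held by 2994 genes, 2488 had 2 to 4 and 1027 had 5 or more, up to 29. The genes with the most sites were Sipa1l1, a Rap GTPase-activating protein (29 sites), Trabd2b, a metalloprotease that cleaves Wnt proteins (24), Smoc2, a secreted calcium-binding matrix protein (21), Pard3, a polarity protein (20), and Foxp1 and Nfib, transcription factors (19 and 18). Lpp, a focal adhesion protein, had 18. Smoc2 has no listed start, so its sites were counted from both ends of its 125 kb span. This gives it, like any other gene without a listed start, a wider window than a single start has, and its rank depends on that. Of the sites of these genes 28 of 29 at Sipa1l1, 22 of 24 at Trabd2b, 19 of 21 at Smoc2, 19 of 20 at Pard3, 17 of 19 at Foxp1, 18 of 18 at Nfib and 13 of 18 at Lpp overlapped a peak in all 3 KO lists. All sites were in the 3 KO lists at 427 of the 1027 genes with 5 or more, and 1981 genes had at least 1 site that lacked a KO peak in some list.

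**Figure D3:**
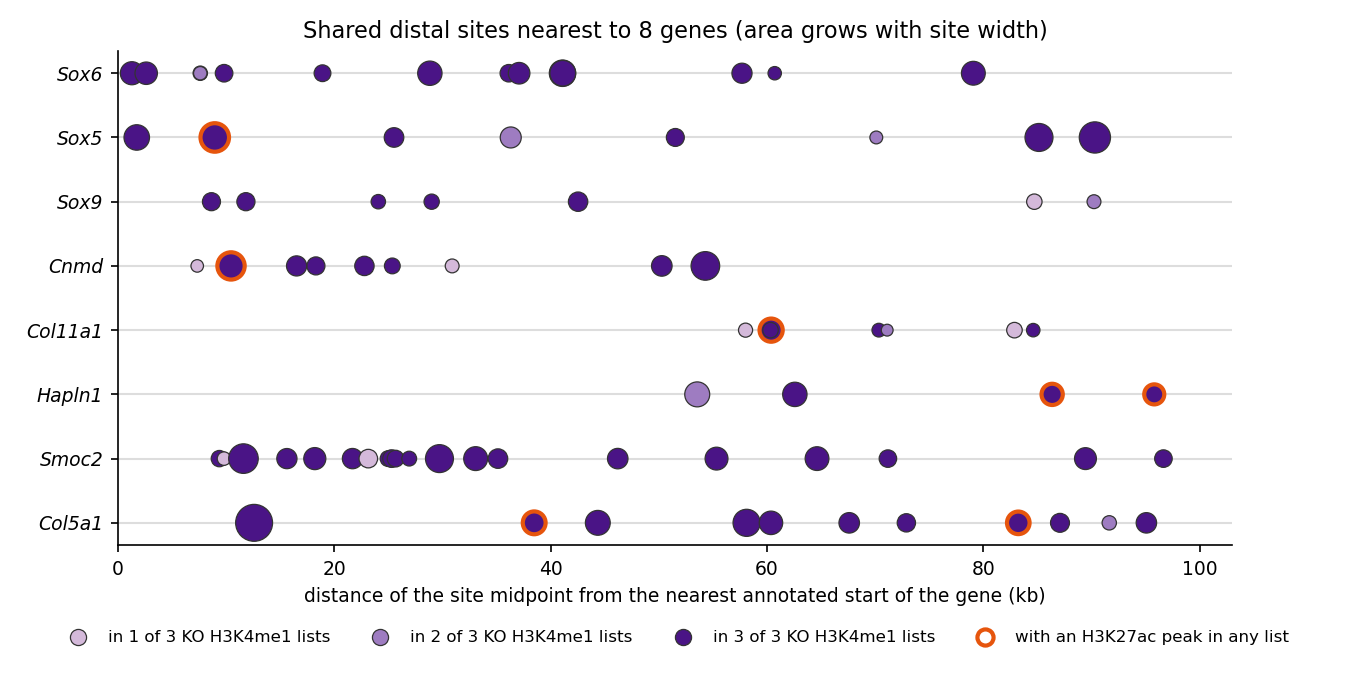
Shared distal sites at 8 genes by the distance (kb) of the site's midpoint from the nearest annotated start of the gene (or the nearer end of its span, where no start is listed). The area of a circle grows with the width of the site, the shade gives the number of KO H3K4me1 lists with an overlapping peak, and an orange ring marks a site with an H3K27ac peak in any list; most circles have the darkest shade, 19 of 21 at Smoc2.

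The chondrocyte list held 20 genes, of which 15 had a site, 65 sites in all with a median width of 1657 bases. KO peaks overlapped 92.3% of these sites in SSC, 89.2% in pBCSP and 81.5% in BCSP, and 46 of 65 (70.8%) in all 3 lists, against 84.9% of all sites. H3K27ac met 10 of the 65. Among the transcription factors, Sox6 had 14 sites (12 in all 3 KO lists), Sox5 had 8 (6) and Sox9 had 7 (5). The Sox9 site with the highest fold, 8.64 kb from the gene (chr11:112772885-112774257, 1373 bases, fold 3.92), had KO folds of 3.54 in SSC, 2.81 in pBCSP and 3.04 in BCSP, with 73.9%, 49.6% and 78.6% of its bases covered. The WT folds of that site were 3.48 in SSC and 3.66 in BCSP.

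At the matrix genes, the only site of Col2a1, the main cartilage collagen (chr15:97973230-97975042, 1813 bases, fold 2.99, 1.47 kb from the gene span), lay under KO peaks in SSC and pBCSP and under none in BCSP. The same held for the only site of Col9a1, a collagen of the fibril surface (chr1:24247924-24249212, 1289 bases, fold 3.21, inside the gene). Matn1, which encodes matrilin 1, had its stronger site 2.28 kb upstream (chr4:130941050-130943164, 2115 bases, fold 4.07), with KO folds of 3.84 in SSC, 2.79 in pBCSP and 2.63 in BCSP. The WT folds of that site were 3.41 in SSC and 3.29 in BCSP. Acan, which encodes aggrecan, had its stronger site 67.4 kb upstream (chr7:78984587-78987145, 2559 bases, fold 4.06), in all 3 KO lists and with an H3K27ac peak of fold 6.37 in BCSP KO replicate 2. No site was assigned to Matn3, Col9a2, Col9a3, Col11a2 or Chad.

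Bone and progenitor genes had fewer sites each. The osteoblast list had 14 sites at 7 of 12 genes, with 9 (64.3%) in all 3 KO lists, and the hypertrophic chondrocyte list 27 sites at 7 of 8 genes, with 18 (66.7%). The only site of Runx2, the master factor of osteoblasts, lay 18.2 kb upstream inside Supt3 (chr17:44832440-44833298, 859 bases, fold 3.60) and had a KO peak in SSC (fold 3.57) and BCSP (2.83) and none in pBCSP. The WT folds there were 3.13 in SSC and 3.09 in BCSP. In the skeletal progenitor list 22 of 28 sites (78.6%) were in all 3 KO lists. They included the only sites of Prrx1, a limb mesenchyme factor (chr1:163288689-163291087, WT folds 3.18 in SSC, 3.63 in pBCSP and 3.67 in BCSP, KO folds 3.22 in SSC, 4.51 in pBCSP and 4.64 in BCSP), and of Pdgfra, a growth factor receptor (chr5:75196544-75200499, 3956 bases, fold 3.65). In the limb list no site was assigned to a Hox gene, whereas Tbx5 had 5, Tbx4 had 4 and Meis1 had 3. The rule leaves out peaks that meet H3K4me3, and a site goes only to the nearest start. The lack of a site, here and at the cartilage genes above, depends on both.

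The Wnt list had 92 sites at 19 of 21 genes (79 in all 3 KO lists, 85.9%), led by Wnt11 with 10, and the BMP and TGF-beta list 93 sites at 20 of 24 genes (81, 87.1%), led by the co-receptor gene Tgfbr3 with 13, all in the 3 KO lists. The hedgehog list had 28 sites (85.7% in all 3 KO lists), the Notch list 25 (84.0%) and the FGF list 34 (85.3%). These shares were close to the 84.9% of all sites. Glycolysis genes held 13 sites at 9 of 18 genes (9 in all 3 KO lists, 69.2%) and hypoxia genes 33 at 9 of 14 (28, 84.8%). In the limb list 10 of 15 sites (66.7%) were in all 3 KO lists. The lists of other cell types, without tendon, held 25 sites at 13 of 41 genes. Lists share few sites each, and none of these differences between lists was tested.

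RNA was compared between KO and WT as the average over the 3 populations, since within a population edgeR called 0 of the 17494 genes tested (0.0%). Unadjusted p was under 0.05 for 1643 genes in SSC, 1096 in pBCSP and 1095 in BCSP, of which 563, 405 and 484 had a site. On average 1.17% of all genes were called, 0.966% higher and 0.206% lower in KO. Among the 5426 tested genes with a site, 78 (1.44%) were called higher and 21 (0.387%) lower. Among the 951 with 5 or more sites, 21 (2.21%) were higher and 9 (0.946%) lower, and among the 8679 protein-coding genes with none 82 (0.945%) were higher and 13 (0.150%) lower. The shares for genes with a site lay near the background, and those for 5 or more sites rest on few genes.

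The calls depended on single libraries and on the model. Among genes with a site edgeR called 99 in all, and 0 when any 1 of the 6 WT libraries or the second replicate of BCSP KO or pBCSP KO was left out (unadjusted 808 to 1055). Leaving out the first KO replicate gave 15 calls for pBCSP, 177 for BCSP and 2262 for SSC, and leaving out SSC KO replicate 2, the library with reads on the fewest genes, gave 116. Deviations from the group means were correlated across populations between libraries that share genotype and number (r = 0.280 to 0.488 across genes, which are not independent replicates), and limma with that correlation called 23 genes with a site, while edgeR on counts summed over populations called 0 (unadjusted 577). The genes named below are therefore given with their values. The share of all tested genes whose genotypes do not overlap is not given here, so that lack of overlap only describes the values of a gene.

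**Figure D4:**
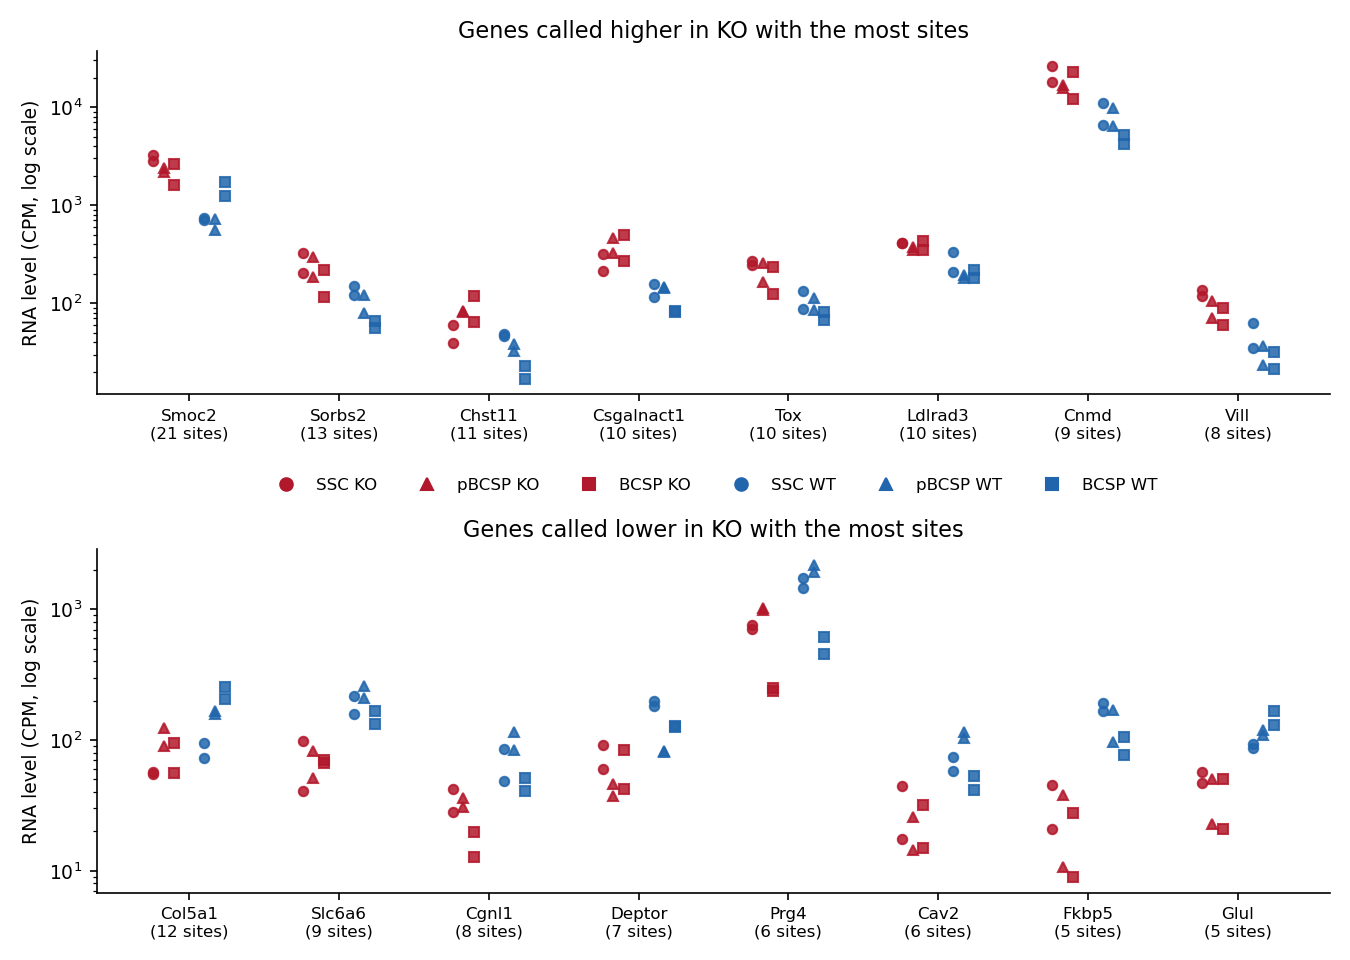
RNA level (CPM, log scale) of the called genes with the most sites in each of the 12 libraries, KO (red) left of WT (blue), with circles for SSC, triangles for pBCSP and squares for BCSP. Above, 8 genes called higher in KO, and below, 8 called lower; Csgalnact1, Ldlrad3 and Cnmd above and Slc6a6, Fkbp5 and Glul below have no overlap between the genotypes.

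Among called genes that were higher in KO, Smoc2 had the most sites, counted from both ends of its span. It was at 2818 and 3250 CPM in SSC KO, 2191 and 2401 in pBCSP KO and 1611 and 2651 in BCSP KO, against 748 and 708 CPM in SSC WT, 558 and 720 in pBCSP WT and 1237 and 1713 in BCSP WT. The BCSP groups were close to each other, and the WT BCSP maximum exceeded the lowest KO value (log2 1.48 ± 0.18, edgeR adjusted p = 0.0244). Csgalnact1, which starts chondroitin sulfate chains, had 10 sites and stood at 212 and 321 CPM in SSC KO, 325 and 466 in pBCSP KO and 269 and 499 in BCSP KO, against 159 and 115 CPM in SSC WT, 145 and 144 in pBCSP WT and 81.5 and 83.3 in BCSP WT. All KO values lay above all WT values (log2 1.54 ± 0.21, edgeR adjusted p = 0.0266). Chst11, a chondroitin sulfotransferase with 11 sites, was at 39.2 to 119 CPM in KO and 16.97 to 48.3 CPM in WT (log2 1.15 ± 0.20), and the genotypes overlapped in SSC, at 60.1 and 39.2 CPM in KO against 48.3 and 46.7 CPM in WT.

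Cnmd, which encodes the cartilage protein chondromodulin, had 9 sites and 12197 to 26090 CPM in KO against 4208 to 11046 CPM in WT, without overlap (log2 1.40 ± 0.25). Sorbs2, a cytoskeletal adaptor with 13 sites, of which 8 were in all 3 KO lists, was at 115 to 326 CPM in KO and 55.7 to 151 CPM in WT (log2 1.22 ± 0.24). Tox, an HMG-box factor (10 sites, log2 1.19 ± 0.22), Ldlrad3, an LDL receptor family protein (10 sites, log2 0.84 ± 0.16), and Vill, a villin-like actin-binding protein (8 sites, log2 1.48 ± 0.24), were called in the same direction.

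Of the called genes that were lower in KO, Fkbp5, a glucocorticoid-responsive co-chaperone with 5 sites, was at 45.6 and 20.9 CPM in SSC KO, 38.0 and 10.6 in pBCSP KO and 27.9 and 8.94 in BCSP KO, against 194 and 166 CPM in SSC WT, 170 and 96.3 in pBCSP WT and 105.3 and 76.9 in BCSP WT. The genotypes did not overlap (log2 -2.40 ± 0.41, edgeR adjusted p = 0.0418). Glul, glutamine synthetase (5 sites), was at 20.8 to 56.9 CPM in KO and 87.6 to 166 CPM in WT, and Slc6a6, the taurine transporter (9 sites, all in the 3 KO lists), at 40.6 to 99.0 CPM in KO and 133 to 259 CPM in WT, both without overlap. Prg4, which encodes lubricin of the joint surface (6 sites), was lower in KO in each population, at 752 and 707 CPM in SSC KO, 1031 and 988 in pBCSP KO and 237 and 252 in BCSP KO, against 1450 and 1735, 1940 and 2193, and 611 and 457 CPM in WT (log2 -1.10 ± 0.14, edgeR adjusted p = 0.0266). Col5a1, a fibrillar collagen gene of connective tissue with 12 sites, had a log2 difference of -0.94 ± 0.18, Cgnl1, a junction protein (8 sites), -1.34 ± 0.22, Deptor, an inhibitor of mTOR (7 sites), -1.10 ± 0.20, and Cav2, caveolin 2 (6 sites), -1.52 ± 0.30.

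In the chondrocyte list 12 of 20 genes were called higher in KO and none lower, where 0.966% of all genes were called higher and 0.206% lower. The list had a median log2 difference of 1.15 against -0.09 over all genes, and 8 of the 12 called genes had a site. Matn1 was at 2615 and 6400 CPM in SSC KO, 3589 and 4660 in pBCSP KO and 2474 and 6138 in BCSP KO, against 1096 and 568 CPM in SSC WT, 442 and 447 in pBCSP WT and 457 and 381 in BCSP WT, without overlap (log2 3.00 ± 0.33, edgeR adjusted p = 0.0244). Sox5 (log2 1.07 ± 0.21) and Col9a1 (1.16 ± 0.21) were also called higher, and so were Matn3, Col9a2, Col9a3 and Col11a2, which had no site. Sox6 (0.76 ± 0.17, adjusted p = 0.0727), Acan (1.14 ± 0.25, adjusted p = 0.0657), Sox9 (0.51 ± 0.22, adjusted p = 0.240) and Col2a1 (-0.07 ± 0.24, adjusted p = 0.900) were not called by edgeR. The higher summed chondrocyte marker RNA of the KO libraries, given above, is made of the same genes.

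The Wnt list had 2 of 21 genes called higher, the secreted inhibitors Sfrp5 (2 sites, log2 3.87 ± 0.54, edgeR adjusted p = 0.0266) and Frzb (2 sites, log2 1.58 ± 0.30, edgeR adjusted p = 0.0490), and a list median of -0.42. Over all genes 0.966% were called higher and 0.206% lower in KO. At an unadjusted p under 0.05, 11.04% of all genes were higher and 8.57% lower in KO. In the BMP and TGF-beta list edgeR called 0 of 24 genes (unadjusted 1 higher and 5 lower, median -0.37), in the osteoblast list 0 of 12 (1 higher and 5 lower, median -1.27) and in the skeletal progenitor list 0 of 16 (2 higher and 5 lower, median -0.54). The hedgehog, Notch and FGF lists also had 0 calls, with 0 higher and 1, 1 and 2 lower at an unadjusted p under 0.05, and medians of -0.07, -1.04 and -0.58. KO replicates differed in these lists: Hes1, a Notch target, was at 123, 144 and 97.2 CPM in replicate 1 of SSC, pBCSP and BCSP KO and at 8.87, 14.7 and 23.4 CPM in replicate 2, against 91.0 to 139 CPM in WT. Notch2, a Notch receptor, was at 41.2 CPM in SSC KO replicate 2 and 226 to 345 CPM in the other KO libraries, against 296 to 475 CPM in WT. Wnt11, with 10 sites, was at 0.277 to 17.6 CPM in KO and 19.4 to 46.0 CPM in WT. Its KO replicates differed widely, and it was not called (log2 -1.53 ± 0.83, edgeR adjusted p = 0.338). Tgfbr3, with 13 sites, was at 7.32 to 21.7 CPM in KO and 23.6 to 49.9 CPM in WT, and was not called (log2 -1.05 ± 0.29, adjusted p = 0.106 in edgeR). In the glycolysis list 11 of 18 genes were called higher, where 0.966% of all genes were. Of the 11 called genes 3 had a site, and Pgk1 (log2 1.63 ± 0.22) and Ldha (1.54 ± 0.23) had none.

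Of 266 sites at the 78 genes higher in KO, 79.3% were in all 3 KO lists, of 91 sites at the 21 genes lower in KO 81.3%, and of 14437 sites at tested genes that were not called 85.6%. By population, KO peaks overlapped 94.7% of the sites at higher genes, 91.2% at lower genes and 95.6% at genes not called in SSC, 89.8%, 93.4% and 93.7% in pBCSP, and 85.7%, 89.0% and 91.5% in BCSP. The order of the 3 classes was not the same in SSC as in the other populations. Sites at 1 gene are not independent, and these differences were not tested. At 9 genes 5 or more sites lacked a KO peak in some list, and RNA at these genes went no single way. Gm525 (5 of 5 sites lacking, log2 4.60 ± 0.81, edgeR adjusted p = 0.0443) and Sorbs2 (5 of 13) were called higher in KO. Hdac9 (5 of 8, log2 -0.19), Ccn2 (5 of 9, -0.46), Cebpb (5 of 10, -1.53), Nckap5 (5 of 13, 0.61), Plekha7 (5 of 13, 0.32) and Lpp (5 of 18, 0.22) were not called, and Gm11677 (6 of 12) has no RNA value. Deptor, with 4 of 7 sites lacking, was called lower.

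Across all tested protein-coding genes, the median log2 difference on average over populations stepped down with the number of sites, at -0.05 for genes with no site, -0.19 with 1, -0.27 with 2 to 4 and -0.29 with 5 or more. In SSC the 4 medians were -0.17, -0.31, -0.35 and -0.36, in pBCSP 0.02, -0.11, -0.20 and -0.24, and in BCSP 0.01, -0.13, -0.19 and -0.26. Of genes with 5 or more sites 66.5% were below 0, against 53.2% of genes with none. The difference between these groups was -0.25 and stayed below 0 in 19 of 19 refits, at -0.31 to -0.16. Genes share libraries and are not replicates, so that no p is given.

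**Figure D5:**
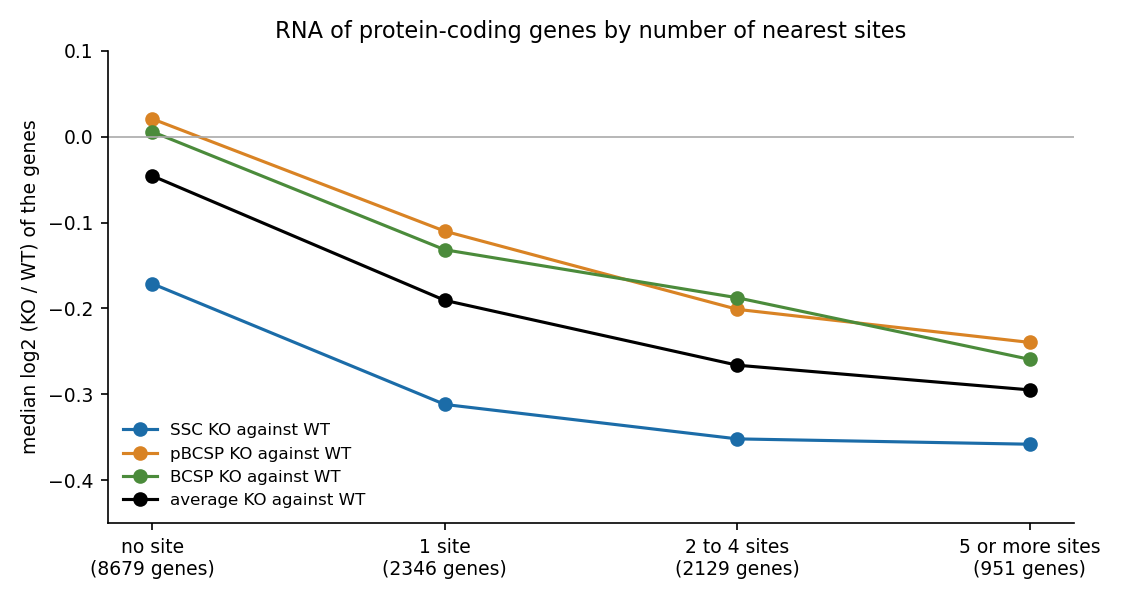
Median log2 difference in RNA between KO and WT (vertical axis) over protein-coding genes with no, 1, 2 to 4 and 5 or more assigned sites (horizontal axis), for each population and for the average. Each line ends lower than it starts, the average at -0.29 for 5 or more sites against -0.05 for none.

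RNA level and gene length moved with the number of sites. Genes with 5 or more sites had a median level of 20.2 CPM and a median span of 120 kb, against 13.7 CPM and 17.1 kb for genes with none. Within 3 equal classes of RNA level, the medians for genes with 5 or more sites against none were -0.50 against -0.21 in the lowest, -0.28 against 0.00 in the middle and -0.25 against -0.01 in the highest class. Within 3 equal classes of gene span they were -0.34 against 0.04 in the shortest, -0.37 against -0.07 in the middle and -0.29 against -0.18 in the longest class. The gap was smallest among the long genes, whose median without a site was the lowest of the 3 classes.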

How the data were processed

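RNA, H3K4me1, H3K4me3 and H3K27ac libraries of 6 groups were used, and 12 input libraries were not used here. The submitters' processing notes name MACS2 2.2.6, featureCounts 2.0.1, Bowtie2 2.3.5.1, Trim Galore 0.6.6, SAMtools 1.9 and the build GRCm38. Settings of these tools and the use of strand in counting were not given in the sources used here. RNA values are whole-number counts per gene, as the authors deposited them. Peak lists carry, per peak, the authors' fold enrichment over background (a ratio), the deposited -log10 of p and of q, and a score made by the authors. The authors called peaks per library, and only H3K27ac replicate 2 is in the narrow format. These values served to describe, rank or filter peaks.

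Overlap needed 1 base. Sites were assigned to the nearest start of a protein-coding gene within 100 kb of the midpoint, from the RefSeq promoter table (GRCm38.p6). That table is incomplete, and for genes without an entry the nearer end of the gene span was used, which departs from the planned start on the gene's strand. There 4475 sites have a distance without direction. Of 17494 genes kept by filterByExpr, 16110 matched RefSeq. Counts were scaled by TMM and tested in 1 fit with 6 group means by edgeR 4.0.16 (R 4.3.3) with its quasi-likelihood test, adjusted by Benjamini-Hochberg over all genes at 0.05. Log2 values carry the SE. CPM uses TMM library sizes and is not per length. DESeq2 1.42.0 and limma 3.58.1 were alternatives. Shares used Python 3.11.15, pandas 2.3.3, numpy 2.4.6 and scipy 1.17.1. Scripts were tested on simulated data.

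Named genes were the 10 with the most sites, up to 3 of each list with the most sites, the 8 called higher and 8 called lower with the most sites, and fixed lineage genes. Named sites were the one with the highest fold at each fixed gene and those of highest fold with no KO peak. No site had H3K27ac in all 6 replicate 1 lists, and those with the most lists, and the highest or widest sites, were named after their values were seen. The members, lists and rules were chosen with earlier results of these data known.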

Additional observations from a re-analysis of the deposited data

Results flagged for a closer look

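In BCSP the share of sites with an H3K27ac peak was higher in KO in both replicate numbers, with a KO minus WT difference of 1.15 percentage points in replicate 1 and 1.16 in replicate 2. In pBCSP it was lower in KO in both, with a difference of -0.905 and -0.392 percentage points. Every library pair of one population moved one way and every pair of the other the opposite way, which is why these values are listed. The difference between the populations was not tested. It is not particular to the sites: shared peaks with H3K4me3 met H3K27ac at 12.4% and 12.3% in BCSP KO against 10.5% and 0.909% in BCSP WT, and at 8.57% and 1.91% in pBCSP KO against 10.99% and 4.77% in pBCSP WT. Other distal peaks had the same directions. The lengths of the H3K27ac lists moved the same way, at 7951 and 8572 peaks in BCSP KO against 6236 and 785 in BCSP WT, and at 4783 and 1105 in pBCSP KO against 6879 and 3811 in pBCSP WT. Their part in the result was not tested beyond the values per 1000 peaks given above.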

How the results depend on the processing

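The number of sites was 12966 with an overlap of at least 0.5 of the peak, 5951 at a deposited -log10 q of 2 or more, 14226 with lists of equal length and 0 at -log10 q of 5 or more, where no further value could be given. With the 3 WT H3K4me3 lists alone it was 29758. KO overlap in SSC, pBCSP and BCSP was 91.0%, 87.3% and 83.4% with the wider overlap, 96.0%, 94.6% and 92.6% with the WT H3K4me3 lists, 92.8%, 89.9% and 82.1% at -log10 q of 2 or more, and 85.6%, 81.7% and 74.2% with lists of equal length. The alternatives at -log10 q of 2 or more, with equal length, limma or summed counts, and the comparison of H3K27ac with other distal peaks, were chosen after seeing the data.

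The H3K27ac difference ran from -0.0594 to 0.380 when 1 library was left out (exact permutation p = 0.315 to 0.975), below 0 in the 2 refits without a BCSP KO library. It did not pass without the replicate block (p = 0.669 in the exact permutation test) or with the block and population (exact p = 0.688).

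Of genes with a site, 99 were called on average, 625 by DESeq2, 793 with no filter on low counts, 23 by limma with the correlation, 223 by limma without it and 0 for summed counts (unadjusted 577). Leaving out 1 library gave 0 to 2262, with 0 in 8 of 12 refits (unadjusted 808 to 1055). With the replicate block 69 were called, of which 55 were shared. Same-numbered KO and WT libraries of 1 population did not deviate together (r = -0.08 to 0.01 across genes). Between KO and WT of different populations r was -0.14 to 0.05. The labels do not say whether these libraries share more than a number. In SSC 72 were called by DESeq2, 173 with no filter and 0 to 2082 with 1 library left out, in pBCSP 39 by DESeq2 and 137 with no filter, and in BCSP 55, 183 and, by limma with the correlation, 2. For differences between populations the counts were 2 by DESeq2, 20 with no filter and 0 to 798 with 1 library left out.  The cause was not tested. Of 532 refits of 28 named genes, 234 ended a call, 9 gave one (Acan and Pdgfra) and 5, all of Col2a1, turned its sign, at 0.00793 to 0.0528 on the log2 scale (its range with 1 library left out was -0.182 to 0.0528).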

Other observations

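Hba-a1, the erythroid alpha globin gene, had its only listed start inside a site (chr11:32282502-32283899, 1398 bases, fold 3.25) with a peak in all 3 KO H3K4me1 lists. Its RNA had a log2 difference of -2.77 ± 0.63 between KO and WT (edgeR adjusted p = 0.0724), and summed erythroid marker RNA was 1.95 to 27.4 CPM in KO and 19.3 to 201 CPM in WT. Its sequence is shared in part with a near-identical copy, so that its counts are uncertain.

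Each H3K4me1 list is 1 library, and the read depth of the ChIP libraries was not used here. The shortest H3K27ac lists held 137 peaks in SSC WT replicate 2 and 785 in BCSP WT replicate 2.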
